A study of Mus musculus with 5 samples.

Results

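Bone morphogenetic protein (BMP) receptors, SMAD proteins and Id genes were examined in sorted hair follicle stem cells of mice in which Polycomb repressive complex 1 (PRC1) was or was not removed. The 10 genes were chosen by symbol: the receptor gene Bmpr1a, the SMAD genes Smad1, Smad5, Smad6, Smad7 and Smad9, and Id1, Id2, Id3 and Id4. All 10 were found among the 30840 features of the deposited table, and all 10 passed the filter on low counts that left 22181 genes for testing. Every mouse was Ring1a-/- with Ring1b flox/flox and received RU-486 (1%) on the skin each day for 10 days from postnatal day 50. The Control group (2 libraries, numbered 2 and 3) carried no Cre. The PRC1 i2KO group (3 libraries, numbered 1, 2 and 3) also carried K15-CrePR1, a Cre recombinase driven by keratin 15 regulatory sequence and activated by RU-486, so its deletion of Ring1b is limited to cells in which that driver is active. Cells were taken at postnatal day 70, sorted as EpCAM-positive, CD34-positive, α6-integrin-high and Sca1-negative, and 50000 of them were used per library. The controls thus also lack Ring1a, and the comparison is between loss of both catalytic genes with the transgene and loss of Ring1a alone.

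BMP ligands bind a pair of type I and type II receptor kinases at the cell surface. The type I receptor, of which BMPR1A is the main form in hair follicle epithelium, phosphorylates SMAD1, SMAD5 and SMAD9, which enter the nucleus with SMAD4 and activate genes such as Id1, Id2 and Id3. SMAD6 and SMAD7 are inhibitors of the pathway that it switches on itself, and Id proteins bind E proteins, partners of basic helix-loop-helix factors, and keep them off DNA. BMP signalling is known for holding bulge stem cells at rest, and loss of Bmpr1a in the follicle is known to activate them.

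Libraries held between 11626006 (Control 3) and 43307694 (PRC1 i2KO 2) counts, so that 1 count stood for between 0.0203 and 0.0793 CPM (counts scaled to a common library size after TMM normalization). Mitochondrial ribosomal RNA took 16.7% and 22.6% of counts in the controls and 21.4% to 32.0% in PRC1 i2KO. The 8 bulge markers had counts in every library, and 0 passed between the groups. At an unadjusted p under 0.05 3 of the 8 were lower, against 3.51% of all tested genes. Each of the 3 lay below both controls in every PRC1 i2KO library, as 15.3% of all tested genes did in CPM. These were Cd34, a marker of the sort (mean CPM 402 in the controls, 252 after PRC1 loss), Lhx2 (689 and 492) and Lgr5 (460 and 339.9), with edgeR adjusted p = 0.422, 0.349 and 0.359. Their part in the values of the 10 genes was not tested. Across all genes tested, 0.126% were called higher and 0% lower in PRC1 i2KO by edgeR's quasi-likelihood test (Benjamini-Hochberg adjusted p under 0.05).

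None of the 10 genes was called between the genotypes. By edgeR 0 were higher and 0 lower, with 1 higher (Smad1) and 1 lower (Smad9) at an unadjusted p under 0.05, a level that 7.43% of all tested genes passed as higher and 3.51% as lower. DESeq2, limma-voom and limma on log2(TPM + 1) also called 0 and 0. Adjusted p-values by edgeR ran from 0.349 for Smad9 to 0.891 for Bmpr1a. The median log2 fold change of the 10 genes was -0.14, against 0.0053 for all tested genes, and 6 of the 10 were below 0, as were 49.6% of all tested genes. In CPM, every PRC1 i2KO library lay above both controls for Smad1 and below both for Smad9 and Id2, as did 14.6% (above) and 15.3% (below) of all tested genes. In TPM, 0 of the 10 lay above both controls in every PRC1 i2KO library and 4 lay below (Bmpr1a, Smad9, Smad6 and Id3), where the shares of all tested genes were 7.01% and 23%. These are bulk samples, in which fewer cells of a type and less RNA per cell cannot be told apart.

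**Figure D1:**
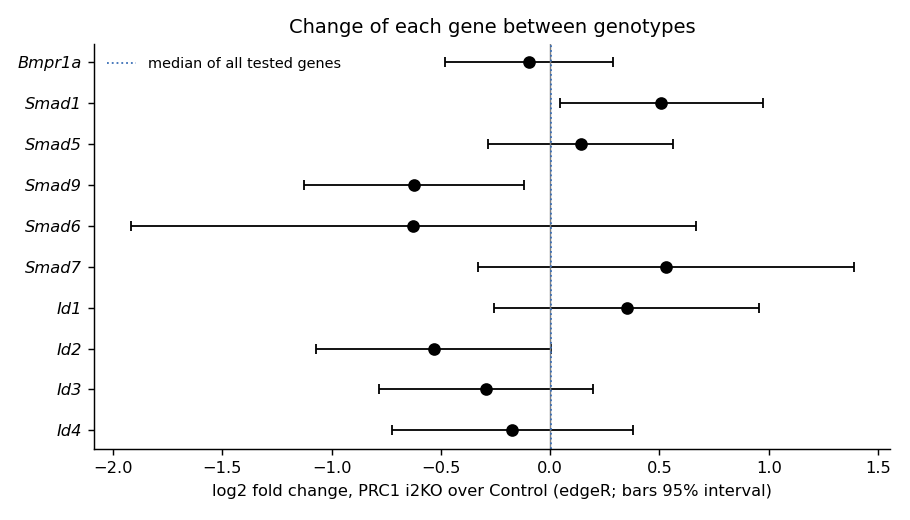
Log2 fold change of PRC1 i2KO over Control (edgeR, 2 Control and 3 PRC1 i2KO libraries; points with 95% interval) for each gene, with the median of all tested genes as a dotted line. Smad1 at 0.51 and Smad9 at -0.62 have intervals that leave out 0 before adjustment, and the interval of Smad6 is the widest.

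Transcript levels are compared between genes only in TPM, which is scaled for transcript length. Id3 and Id2 were the most abundant of the 10 genes in Control, at means of 104 and 103 TPM, followed by Id1 (64.1), Smad5 (41.5), Bmpr1a (38.9), Smad1 (23.8), Id4 (18.6), Smad7 (12.5), Smad9 (8.83) and Smad6 (3.84 TPM). Only for 2 neighbouring pairs in this order did the ranges over all 5 libraries stay apart, Bmpr1a above Smad1 and Smad9 above Smad6. The ranges of the other neighbours overlapped, although Smad1 was above Id4 within each of the 5 libraries. The remaining neighbours could not be ranked beyond the spread of their libraries. In PRC1 i2KO the order was the same except that Id1 came first, at a mean of 65.0 TPM, before Id3 at 63.9 and Id2 at 57.4 TPM.

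**Figure D2:**
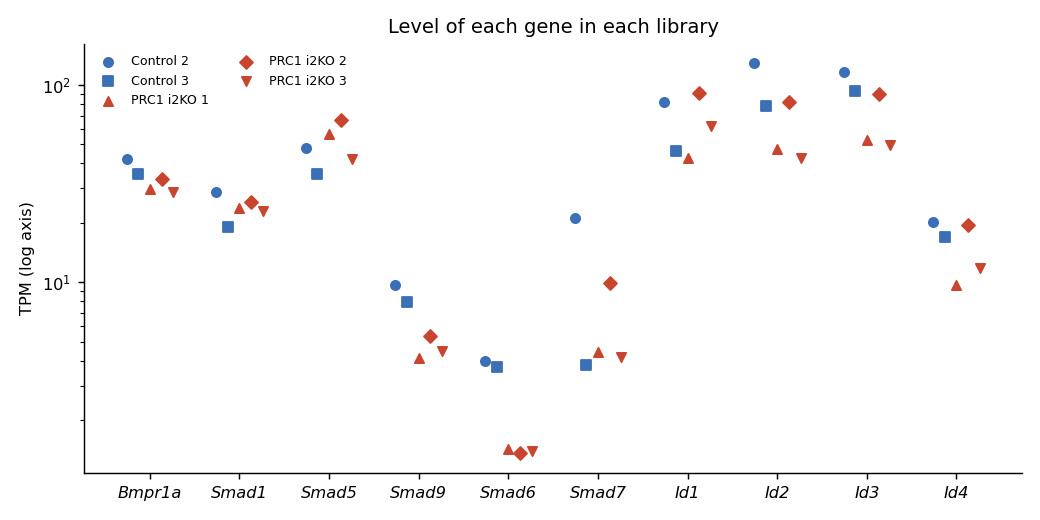
TPM (log axis) of each gene in each of the 2 Control (blue) and 3 PRC1 i2KO (red) libraries. Smad6 and Smad9 show every PRC1 i2KO library below both controls, at 1.36 to 1.43 TPM against 3.71 and 3.98 TPM and at 4.15 to 5.36 against 7.97 and 9.68 TPM.

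Bmpr1a (ENSMUSG00000021796.15), the type I receptor, was close in count level between the groups. It measured 200.4 and 228 CPM in Control 2 and 3 against 216, 181 and 204 CPM in PRC1 i2KO 1, 2 and 3. The groups overlapped, and the log2 fold change was -0.10 ± 0.17 (SE; edgeR adjusted p = 0.891), a 95% interval of 0.717-fold to 1.22-fold. Changes within that interval are compatible with these libraries. In TPM every PRC1 i2KO library, at 29.8, 33.4 and 28.8 TPM, lay below the controls at 42.4 and 35.4 TPM, as 23% of all tested genes did in TPM. On the log2(TPM + 1) scale the median of all tested genes was itself shifted by -0.19, and Bmpr1a was at -0.33 (limma adjusted p = 0.603).

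The other receptor genes were not called either. Of 2 other type I receptors tested and 3 type II receptors tested, 0 passed in either direction, with median log2 fold changes of -0.41 and 0.01. Bmpr1b, a type I receptor close to Bmpr1a, had no count in any library except PRC1 i2KO 2, which had 54. Acvr1, the type I receptor also called ALK2, measured 12.8 and 33.4 CPM in Control against 18.5, 26.3 and 22.7 CPM in PRC1 i2KO, inside the range of the controls. Bmpr2, the type II partner, measured 577 and 680 CPM in Control against 844, 765 and 714 CPM in PRC1 i2KO, which gave 0.30 ± 0.16 as log2 fold change (SE; edgeR adjusted p = 0.535). Its PRC1 i2KO libraries all lay above both controls in counts, whereas in TPM they overlapped, at 57.1 and 48.3 TPM against 49.7, 58.8 and 47.9 TPM. Acvrl1, a type I receptor best known from endothelium, stood at -0.80 on the log2 fold change scale (edgeR adjusted p = 0.594). Of 6 co-receptor genes tested 0 passed. Eng, the endothelial co-receptor endoglin, had 1 and 0 counts in Control 2 and 3 against 39, 1 and 27 in PRC1 i2KO 1, 2 and 3 (edgeR adjusted p = 0.379).

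The 3 receptor-regulated SMAD genes, whose products carry the BMP signal into the nucleus, differed from one another in direction. Smad9 (ENSMUSG00000027796.2), also called Smad8, measured 42.6 and 47.3 CPM in Control against 29.0, 29.2 and 29.2 CPM in PRC1 i2KO. All 3 PRC1 i2KO libraries lay below both controls and close to one another, 0.649-fold of Control with a 95% interval of 0.459 to 0.919, but the difference did not pass (log2 fold change -0.62 ± 0.22, SE; edgeR adjusted p = 0.349). In TPM the same order held, with 9.68 and 7.97 TPM against 4.15, 5.36 and 4.47 TPM. Its log2 fold change was negative under all 17 alternative settings, between -0.91 and -0.54, with adjusted p between 0.0947 (DESeq2) and 0.900 (without Control 2). The reference annotation (GENCODE M21) lists 1 transcript for this gene, with no overlapping gene. Its expected counts were not whole numbers in any of the 5 libraries, as happens where estimated counts divide reads between features.

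Smad1 (ENSMUSG00000031681.16) lay the other way in counts. It measured 53.7 and 56.2 CPM in Control against 88.9, 68.2 and 77.3 CPM in PRC1 i2KO, 1.42-fold of Control with a 95% interval of 1.03 to 1.96 (log2 fold change 0.51 ± 0.21, SE; edgeR adjusted p = 0.419). Every PRC1 i2KO library was above both controls in CPM. In TPM the groups overlapped, at 28.6 and 19.1 TPM against 23.8, 25.5 and 23.0 TPM, and the log2 fold change was 0.04 on the log2(TPM + 1) scale (limma adjusted p = 0.965). Smad5 (ENSMUSG00000021540.16), the most abundant of the 3 in TPM in every library, measured 149 and 139 CPM in Control against 156, 183 and 136 CPM in PRC1 i2KO (log2 fold change 0.14 ± 0.19, SE; edgeR adjusted p = 0.846). Its groups overlapped in CPM and in TPM, at 47.8 and 35.2 TPM in Control against 56.6, 66.5 and 42.1 TPM in PRC1 i2KO. With 1 library left out its edgeR value ran from 0.02 (without PRC1 i2KO 2) to 0.23 (without PRC1 i2KO 3).

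Within the summed receptor-regulated SMAD transcripts, the share of Smad9 kept the groups apart. Smad9 was 11.3% and 12.8% of the summed TPM of Smad1, Smad5 and Smad9 in the controls and 4.91%, 5.50% and 6.43% in PRC1 i2KO, a mean difference of -6.41 percentage points (control SD 1.09, n = 2; PRC1 i2KO SD 0.768, n = 3). The exact two-sided permutation test gave p = 0.2, the smallest value that 2 libraries against 3 allow. The same share taken from CPM differed by -7.43 percentage points, with every PRC1 i2KO library again below both controls. Smad5 took 55.5% and 56.5% of the TPM pool in the controls and 66.9%, 68.3% and 60.5% in PRC1 i2KO, also without overlap. From CPM, its share was 59.0% in Control and 59.5% in PRC1 i2KO on average, and the groups overlapped. The share of Smad1 changed direction with the unit: it differed by -2.81 percentage points in TPM, with overlap, and by 6.99 in CPM, where every PRC1 i2KO library lay above both controls.

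**Figure D3:**
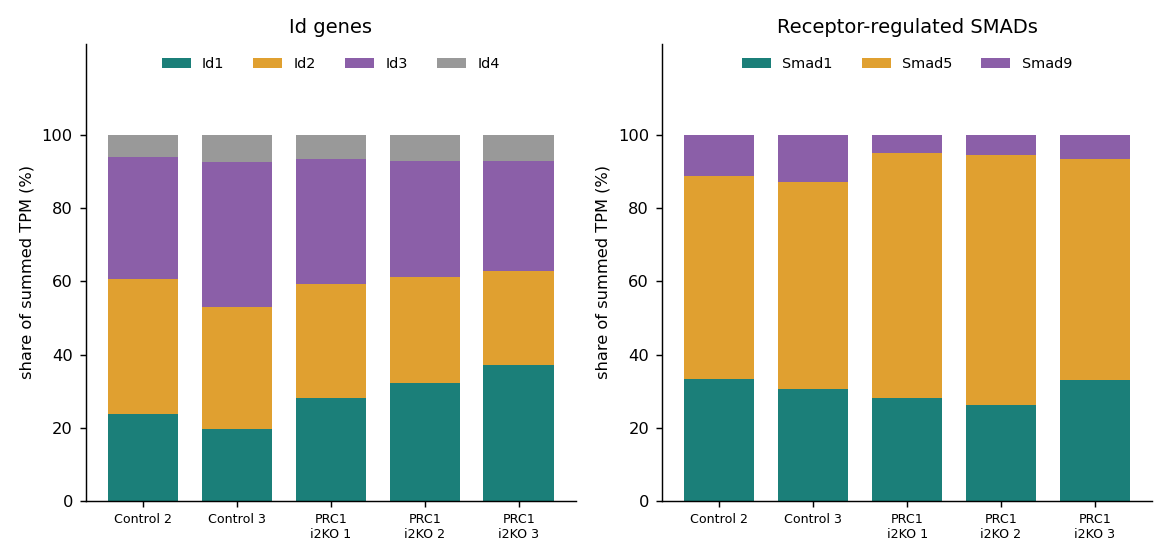
Share (%) of each gene in the summed TPM of the 4 Id genes (left) and of the 3 receptor-regulated SMAD genes (right) in each library. Id1 takes 28.0% to 37.2% in PRC1 i2KO against 19.7% and 23.7% in Control, and Smad9 takes 4.91% to 6.43% against 11.3% and 12.8%.

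The inhibitory SMAD genes gave different results in counts and in TPM. Smad6 (ENSMUSG00000036867.7), the inhibitor specific to BMP signalling, measured 9.40 and 3.49 CPM in Control against 4.03, 3.99 and 4.59 CPM in PRC1 i2KO, so that the PRC1 i2KO libraries lay between the controls. In TPM the controls were alike, at 3.98 and 3.71 TPM, and the PRC1 i2KO libraries were all lower, at 1.43, 1.36 and 1.40 TPM. The edgeR log2 fold change was -0.63 ± 0.57 (SE; adjusted p = 0.755) and the value on the log2(TPM + 1) scale was -1.02 (limma adjusted p = 0.328). Without Control 2 the edgeR value was 0.27, and without Control 3 it was -1.15. Control 3 had 44 counts of this gene and Control 2 had 463. Smad7 (ENSMUSG00000025880.11), which inhibits both BMP and TGF-β signalling, measured 25.7 and 14.3 CPM in Control against 24.4, 41.0 and 21.5 CPM in PRC1 i2KO. In TPM it was at 21.2 and 3.81 TPM in Control against 4.42, 9.97 and 4.17 TPM in PRC1 i2KO, inside the range of the controls. Its log2 fold change was 0.53 ± 0.38 by edgeR (SE; adjusted p = 0.679) and -0.62 on the log2(TPM + 1) scale (limma adjusted p = 0.765), so no direction can be given for Smad7. The edgeR value ran from 0.19 without Control 3 to 1.03 without Control 2.

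The ratio of the receptor-regulated SMAD sum (Smad1, Smad5 and Smad9) to the inhibitory sum (Smad6 and Smad7) showed the same dependence on the unit. In TPM it was 3.41 and 8.28 in the controls and 14.5, 8.59 and 12.5 in PRC1 i2KO, a difference of 1.12 on the log2 scale (exact two-sided permutation p = 0.2, the smallest possible). From CPM it was 6.99 and 13.6 in the controls and 9.64, 6.22 and 9.30 in PRC1 i2KO, a log2 difference of -0.25 with overlapping groups (exact two-sided permutation p = 0.6).

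Dividing the deposited count by the TPM of the same gene, after removing a constant for each library, gives the transcript length that the authors' quantification used for the gene, relative to its control mean. Over 13575 genes with at least 20 counts in every library, the highest and lowest library differed in this length by a median of 1.18-fold. For Id1, Id2, Id4 and Smad9 the 5 libraries differed by at most 1.02-fold, so that counts and TPM of these 4 genes differ only by the scaling of the libraries. For Smad6 the length ranged 3.40-fold, with the shortest in Control 3 at 0.455 and the longest in Control 2 at 1.55, a range wider than that of 98.2% of genes. For Smad7 it ranged 2.86-fold, at 0.609 and 1.39 in Control 2 and 3 and 1.73, 1.66 and 1.74 in PRC1 i2KO. For Smad5 it was 1.04 and 0.965 in the controls and 0.570, 0.731 and 0.721 in PRC1 i2KO, shorter in every PRC1 i2KO library. GENCODE M21 lists 3 transcripts of 273 to 2971 bases for Smad6, 5 of 392 to 4278 for Smad7 and 6 of 572 to 6584 for Smad5. It also lists Gm27271, Gm27301 and Gm27834 within Smad5 on the same strand. With these lengths entered as offsets in edgeR, an alternative chosen after seeing the data, Smad5 was at 0.75 (adjusted p = 0.319), Smad6 at -1.13 (0.494), Smad7 at -0.59 (0.769) and Smad9 at -0.59 (0.467), and 0 of the 10 genes passed.

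**Figure D4:**
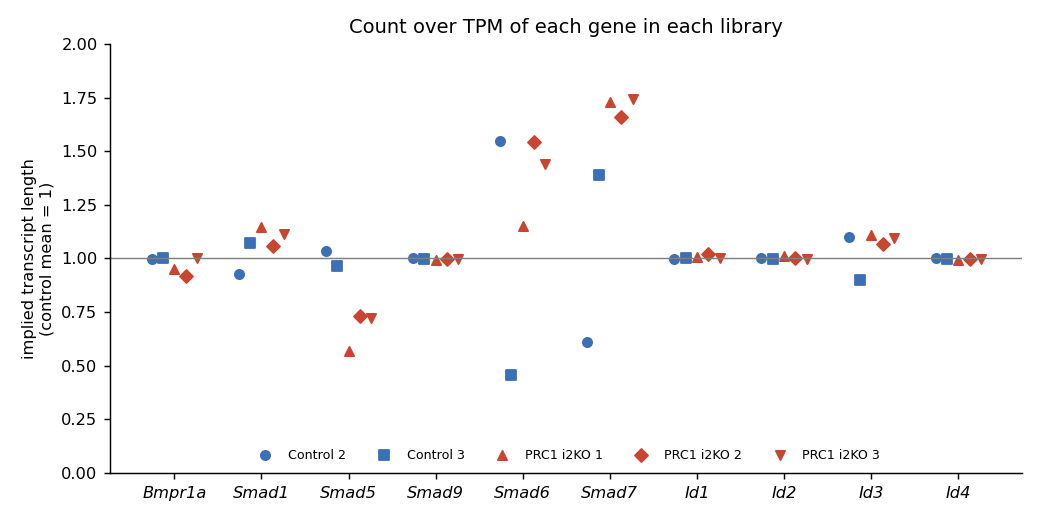
Transcript length implied by count over TPM for each gene and library, relative to the mean of the 2 controls (1, grey line). Id1, Id2, Id4 and Smad9 stay near 1, while Smad6 and Smad7 spread from 0.455 to 1.55 and from 0.609 to 1.74, and Smad5 lies between 0.570 and 0.731 in PRC1 i2KO.

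The Id genes, of which Id1, Id2 and Id3 are among the best known direct targets of BMP signalling, did not share a direction, with Id1 above 0, Id2, Id3 and Id4 below it, and 0 of the 4 past the threshold. Id1 (ENSMUSG00000042745.9) measured 53.0 and 40.5 CPM in Control against 44.8, 74.4 and 59.6 CPM in PRC1 i2KO. Its groups overlapped, with PRC1 i2KO 2 and 3 above both controls (log2 fold change 0.35 ± 0.27, SE; edgeR adjusted p = 0.699; 95% interval 0.837-fold to 1.94-fold). With 1 library left out the Id1 value ran from 0.15 (without PRC1 i2KO 2) to 0.56 (without Control 2), it was 0.18 without Control 3, and on the log2(TPM + 1) scale it was 0.01 (limma adjusted p = 0.994). Id2 (ENSMUSG00000020644.9) measured 122 and 100.0 CPM in Control against 73.1, 96.8 and 60.0 CPM in PRC1 i2KO. Its PRC1 i2KO libraries all lay below both controls, PRC1 i2KO 2 only slightly, and the difference did not pass (log2 fold change -0.53 ± 0.24, SE; edgeR adjusted p = 0.462; 95% interval 0.476-fold to 1.00-fold). In TPM the Id2 groups overlapped, at 128 and 78.1 TPM against 47.6, 81.9 and 42.6 TPM.

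Id3 (ENSMUSG00000007872.3) measured 107 and 95.1 CPM in Control against 78.6, 100.3 and 68.4 CPM in PRC1 i2KO (log2 fold change -0.29 ± 0.22, SE; edgeR adjusted p = 0.685). PRC1 i2KO 2 lay between the controls and the other PRC1 i2KO libraries below them, and in TPM all 3, at 52.6, 89.6 and 49.7 TPM, were below the controls at 116 and 92.8 TPM. Id4 (ENSMUSG00000021379.2), best known from neural progenitors, measured 63.2 and 70.9 CPM in Control against 48.0, 75.8 and 54.4 CPM in PRC1 i2KO (log2 fold change -0.17 ± 0.24, SE; edgeR adjusted p = 0.856). GENCODE M21 lists A330033J07Rik and Gm49291 on the opposite strand of Id4, and the sources used here do not say whether counting was stranded. In Id2, Id3 and Id4 alike, PRC1 i2KO 2 was the highest PRC1 i2KO library, in CPM and in TPM. Without PRC1 i2KO 2 their log2 fold changes were -0.74, -0.46 and -0.39 (edgeR adjusted p = 0.235, 0.446 and 0.573). Leaving out a different library took each value toward 0, so that Id2 was at -0.38 without Control 2, Id3 at -0.18 without PRC1 i2KO 3 and Id4 at -0.04 without PRC1 i2KO 1 (edgeR adjusted p = 0.906, 0.807 and 0.978).

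Other measures split the PRC1 i2KO libraries the same way. The summed TPM of 12 mitosis genes was 10.6 and 17.0 in the controls and 56.3, 21.5 and 135 in PRC1 i2KO 1, 2 and 3, and mitochondrial ribosomal RNA took 29.7%, 21.4% and 32.0% of counts in the same 3 libraries. PRC1 i2KO 2, with the highest Id2, Id3 and Id4, thus had the lowest mitosis sum and the lowest mitochondrial share of that group. Of the 12 mitosis genes 0 passed edgeR and all 12 were above 0, with a median log2 fold change of 3.01 against 0.0053 for all tested genes. Of all tested genes 49.6% were below 0. In CPM 6 of the 12 lay above both controls in every PRC1 i2KO library, against 14.6% of all tested genes, and the others overlapped. The part of these measures in the Id values was not tested.

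Summed over the 4 genes, Id transcripts were at 347 and 234 TPM in Control against 153, 282 and 166 TPM in PRC1 i2KO, with overlap (exact two-sided permutation p = 0.4). The make-up of the sum separated the groups where the sum did not. Id1 took 23.7% and 19.7% of it in the controls and 28.0%, 32.2% and 37.2% in PRC1 i2KO, a mean of 21.7% ± 2.77 (SD, n = 2) against 32.5% ± 4.59 (SD, n = 3; exact two-sided permutation p = 0.2, the smallest possible). Id2 took 37.1% and 33.4% in the controls and 31.2%, 29.1% and 25.7% in PRC1 i2KO, again with no overlap. The shares of Id3 (36.5% and 32.1% on average) and Id4 (6.54% and 6.81%) overlapped between the groups. Taken from CPM, the difference was 7.16 percentage points for Id1 and -6.44 for Id2, without overlap for either gene. These shares need no scaling between libraries, since both parts of each come from the same library. They were examined after the levels of the 4 genes were known, and no adjustment for the number of shares could bring p under 0.2.

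By the root mean square difference of log2 CPM profiles over the 5 libraries, each centred on its own mean, Id2 and Id3 were each other's nearest gene among the 10 (0.13), and Id4 was nearest to Id3 (0.18). Smad7 was nearest to Id1 (0.28). Among 8623 genes of at least 10 CPM in control, the profiles most like that of Id1 were those of Med28, a Mediator subunit (0.020), Gcat, an enzyme of threonine breakdown (0.034), and the transporter gene Slc35f5 (0.053). With 5 libraries such a match is only a description.

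Promoter windows are shown for the 3 Id genes with an entry that lay lower together in PRC1 i2KO 1 and 3, for Smad9, the gene with the smallest p, and for Smad6, the gene with the widest range of implied length among the 10. They run from 250 bases before to 50 after the transcription start, come from RefSeq on GRCm38.p6, and are printed 5′ to 3′ on the strand of the gene. Capitals mark GGCGCC, a GC-rich form bound by receptor-regulated SMADs, or GTCTAGAC, the palindromic SMAD-binding element.
Id2 promoter, chr12:25096043-25096342, minus strand: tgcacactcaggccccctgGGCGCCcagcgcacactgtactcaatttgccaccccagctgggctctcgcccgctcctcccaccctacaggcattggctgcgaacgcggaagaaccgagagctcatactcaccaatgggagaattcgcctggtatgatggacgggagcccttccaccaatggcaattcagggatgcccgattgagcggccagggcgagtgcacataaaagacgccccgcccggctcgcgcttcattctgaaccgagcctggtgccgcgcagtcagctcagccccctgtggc
Id3 promoter, chr4:136143572-136143871, plus strand: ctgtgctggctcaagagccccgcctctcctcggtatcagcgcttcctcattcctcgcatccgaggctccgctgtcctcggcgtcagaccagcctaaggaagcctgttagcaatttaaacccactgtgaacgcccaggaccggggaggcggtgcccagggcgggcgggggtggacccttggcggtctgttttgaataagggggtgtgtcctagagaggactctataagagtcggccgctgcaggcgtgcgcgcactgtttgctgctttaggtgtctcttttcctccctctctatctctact
Id4 promoter, chr13:48260866-48261165, plus strand: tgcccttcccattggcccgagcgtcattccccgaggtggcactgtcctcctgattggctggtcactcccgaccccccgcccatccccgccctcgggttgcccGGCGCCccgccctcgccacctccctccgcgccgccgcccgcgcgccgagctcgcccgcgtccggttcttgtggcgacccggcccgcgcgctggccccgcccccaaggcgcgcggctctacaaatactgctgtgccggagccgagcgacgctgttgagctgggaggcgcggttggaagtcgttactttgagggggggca
Smad9 promoter, chr3:54755332-54755631, plus strand: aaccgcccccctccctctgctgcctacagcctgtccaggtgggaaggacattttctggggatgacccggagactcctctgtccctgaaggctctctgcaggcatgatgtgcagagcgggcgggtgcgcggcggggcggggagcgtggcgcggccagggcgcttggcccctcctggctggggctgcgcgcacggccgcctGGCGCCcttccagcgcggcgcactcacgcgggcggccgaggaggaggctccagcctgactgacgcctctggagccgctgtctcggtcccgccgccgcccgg
Smad6 promoter, chr9:64022010-64022309, minus strand: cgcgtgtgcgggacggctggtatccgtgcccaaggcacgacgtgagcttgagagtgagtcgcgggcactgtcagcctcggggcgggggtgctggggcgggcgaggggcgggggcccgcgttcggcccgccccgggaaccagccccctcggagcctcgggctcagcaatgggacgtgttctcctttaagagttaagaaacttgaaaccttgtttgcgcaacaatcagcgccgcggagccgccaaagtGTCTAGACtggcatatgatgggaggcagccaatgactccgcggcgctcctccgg

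In these windows GGCGCC occurs once each in Id2, Id4 and Smad9, with its first base at -231, -148 and -51 counted from the start, and also in the window of Bmpr1a and in 2 of the 3 windows of Smad5. It is not in the windows of Id3, Smad1 and Smad6, and 11.9% of 32851 RefSeq promoter windows of the same length hold it. The windows of these genes held from 60% (Id3) to 79.3% (Bmpr1a) G and C, against a median of 52.7% over all windows. The shares of all windows given here were not matched for that content, so they are no measure of enrichment. GTCTAGAC occurs in the window of Smad6, across its start, and 0.213% of all windows hold it. CAGACA was in none of the windows of these 8 genes (21% of all windows), nor was TATAAA (13.6%). CANNTG, the E-box, was found once each in Id2, Smad9, Smad6 and 2 windows of Smad5 (72.3%). Both strands were searched, GGCGCC, GTCTAGAC and some CANNTG sites read alike on both, and no GGCGCC overlapped GTCTAGAC. A match of letters is not a bound site, and the part of these matches in the values of the genes was not tested. Entries were found for 8 of the 10 genes outside the omitted chromosome, and Id1 is named only.

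The common partner Smad4 measured 43.4 and 38.2 CPM in Control against 33.6, 61.1 and 44.7 CPM in PRC1 i2KO, with overlap (log2 fold change 0.19 ± 0.28, SE; edgeR adjusted p = 0.868). Smad3, a SMAD of the TGF-β branch, was above both controls in every PRC1 i2KO library, at 12.5 and 14.8 CPM against 24.9, 27.1 and 22.5 CPM, and did not pass (log2 fold change 0.87 ± 0.28, SE; edgeR adjusted p = 0.314). Smad2, its partner in that branch, averaged 44.1 CPM in Control against 39.9 CPM in PRC1 i2KO (by edgeR, adjusted p = 0.903).

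Regulators that act on SMAD proteins gave no calls. Of 10 ubiquitin ligase and corepressor genes tested 0 passed in either direction, 0 were past an unadjusted p of 0.05, and the median log2 fold change was 0.0043. The smallest p-values were those of the ubiquitin ligase genes Wwp1 (-0.36) and Wwp2 (-0.34), then Tob1 (-0.25), an antiproliferative SMAD cofactor, with edgeR adjusted p between 0.530 and 0.698. Of 13 phosphatase and cofactor genes 0 passed, with 4 higher and 0 lower at an unadjusted p under 0.05 (7.43% and 3.51% of all tested genes) and a median of 0.06. In CPM 5 of these 13 lay above both controls in every PRC1 i2KO library, against 14.6% of all tested genes. Runx2, a transcription factor that pairs with BMP SMADs in bone, measured 5.60 and 5.08 CPM in Control against 16.1, 15.9 and 11.8 CPM in PRC1 i2KO (log2 fold change 1.45 ± 0.39, SE; edgeR adjusted p = 0.227). Runx3, its relative, averaged 0.313 CPM in Control against 3.43 CPM in PRC1 i2KO (by edgeR, adjusted p = 0.261). Fkbp1a, which holds type I receptors inactive, averaged 63.5 CPM in Control against 92.7 CPM in PRC1 i2KO (log2 fold change 0.54 ± 0.20, SE; edgeR adjusted p = 0.377).

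Upstream, 0 of 7 ligand genes and 0 of 13 antagonist genes tested passed, with median log2 fold changes of 0.74 and -0.26. At an unadjusted p under 0.05 the ligands had 2 higher and 0 lower (Bmp4 and Bmp7). The antagonists had 2 higher (Htra1 and Fstl1) and 1 lower (Grem1). Of all tested genes 7.43% were higher and 3.51% lower at that level. Bmp4 had 1.52 and 0.714 CPM in the controls and 13.3, 10.6 and 9.58 CPM in PRC1 i2KO (by edgeR, adjusted p = 0.0936), the smallest adjusted p of any gene in these pathway lists. Bmp7 was at 27.3 and 35.6 CPM against 66.1, 38.1 and 53.7 CPM (edgeR adjusted p = 0.394). Grem1, a secreted BMP antagonist of the bulge, measured 956 and 890 CPM in Control against 630, 580 and 485 CPM in PRC1 i2KO (by edgeR, adjusted p = 0.172). Htra1, a secreted protease that restrains BMP and TGF-β signalling, was at 8.51 and 11.0 CPM against 29.2, 25.4 and 24.0 CPM (edgeR adjusted p = 0.150).

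Other genes known to respond to BMP also lay in both directions. Of 19 tested, 0 passed, with 10 above 0 and a median log2 fold change of 0.05. At an unadjusted p under 0.05, 4 were higher and 1 lower (7.43% and 3.51% of all tested genes). Msx1, a homeobox gene, measured 4.81 and 6.35 CPM in Control against 31.1, 22.8 and 14.3 CPM in PRC1 i2KO (by edgeR, adjusted p = 0.150). Hes1, a transcriptional repressor that Notch also drives, was at 13.8 and 19.5 CPM against 38.0, 33.9 and 53.4 CPM (edgeR adjusted p = 0.177). Klf4, a zinc-finger factor of epidermal differentiation, lay the other way, averaging 896 CPM in Control against 666 CPM in PRC1 i2KO (log2 fold change -0.43 ± 0.14, SE; edgeR adjusted p = 0.321).

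In a list of E protein and other bHLH genes, not all of them partners of Id proteins, 0 of 8 tested genes passed. Their median log2 fold change was 0.30. Tcf12, which encodes the E protein HEB, measured 377 and 457 CPM in Control against 331, 281 and 279 CPM in PRC1 i2KO, below both controls in every library (log2 fold change -0.49 ± 0.17, SE; edgeR adjusted p = 0.333). The other E protein genes, Tcf4 and Tcf3, which were added after their values were seen to complete the set, stood at -0.13 and 0.49 on the log2 scale (edgeR adjusted p = 0.835 and 0.609). Bhlhe40, a bHLH repressor, overlapped between the groups. It measured 30.7 and 18.8 CPM in Control against 25.5, 84.2 and 63.3 CPM in PRC1 i2KO (by edgeR, adjusted p = 0.387). Ascl2, a bHLH factor, measured 0.223 and 0.555 CPM in Control against 3.80, 3.74 and 7.46 CPM in PRC1 i2KO (by edgeR, adjusted p = 0.171).

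Markers of other skin cells summed to less than the bulge markers in every library, and some of the sums lay higher in PRC1 i2KO. The sort for EpCAM should remove fibroblasts, endothelial and mural cells, and that for CD34 and against Sca1 should remove most interfollicular cells. Ly6a, the gene for Sca1, measured 1.62 and 0.793 CPM in Control against 3.12, 4.78 and 4.93 CPM in PRC1 i2KO (by edgeR, adjusted p = 0.398). Every PRC1 i2KO library lay above both controls for it, as for 14.6% of all tested genes in CPM. The summed TPM of 8 bulge markers was between 3348 and 4450 in the controls and between 2346 and 3913 in PRC1 i2KO. Krt15 made up most of it, at 3339 and 2508 TPM in Control and 2141, 3166 and 1779 TPM in PRC1 i2KO. Sums over different genes do not give shares of cells. The summed TPM of 6 fibroblast and dermal papilla markers was 5.38 and 6.30 in the controls and 8.81, 12.6 and 8.59 in PRC1 i2KO. Pdgfra measured 3.37 and 2.22 CPM in Control against 32.5, 25.4 and 16.0 CPM in PRC1 i2KO (by edgeR, adjusted p = 0.0502). Col1a1 was at 3.41 and 2.94 CPM against 11.2, 19.7 and 7.88 CPM (edgeR adjusted p = 0.215). Col1a2 overlapped, at 16.8 and 15.7 CPM against 13.3, 20.3 and 20.8 CPM (edgeR adjusted p = 0.910). Low counts kept Col3a1, Dcn and Lum out of the test. Col3a1 had 12 counts in PRC1 i2KO 2 and 0 in every other library. Dcn had 8 and 1 counts in Control against 2, 7 and 99 in PRC1 i2KO, and Lum 0 and 2 against 1, 3 and 5. The 4 endothelial markers in the table summed to 11.6 and 5.58 TPM in the controls and to 6.04, 9.98 and 9.30 TPM in PRC1 i2KO (endothelial cells are known for Id1, Id3 and Smad6 expression). Most of that sum was Pecam1, which was 11.1 TPM in Control 2 and between 5.07 and 9.62 TPM in the other libraries. Kdr, a more specific endothelial marker, lay the other way on few counts, 19 and 17 in Control against 4, 2 and 2 after PRC1 loss. That was 0.386 and 1.35 CPM against 0.183, 0.0451 and 0.0633 CPM (by edgeR, adjusted p = 0.425). Tie1, also endothelial, overlapped between the groups, at 0.711 and 0.714 CPM against 1.24, 0.925 and 0.696 CPM (edgeR adjusted p = 0.921). The 2 mural markers summed to at most 0.358 TPM, and the 4 immune markers to 1.24 and 0.737 TPM against 1.97, 3.94 and 1.96 TPM. Of the immune markers, Ptprc was at -0.66 on the log2 fold change scale, with overlap (edgeR adjusted p = 0.772). Cd3e had 1 and 4 counts in Control against 0, 115 and 0 in PRC1 i2KO, and Cd207 0 and 1 against 60, 8 and 6. The 3 melanocyte markers summed to 4.14 and 2.22 TPM in Control against 1.12, 1.32 and 2.31 TPM in PRC1 i2KO. Cd52 (immune) and Tyrp1 (melanocyte) were at 0 in both controls and too low to test. In PRC1 i2KO 1, 2 and 3 Cd52 had 0, 4 and 18 counts and Tyrp1 had 0, 24 and 1. The melanocyte markers that were tested, Dct and Pmel, overlapped between the groups, at log2 fold changes of -0.66 and -0.74 (edgeR adjusted p = 0.787 and 0.816). The 5 markers of interfollicular and differentiating epidermis summed to 274 and 199 TPM in the controls and to 147, 799 and 365 TPM in PRC1 i2KO, highest in PRC1 i2KO 2. In CPM, Smad5, Smad7, Id1, Id2, Id3 and Id4 were likewise highest in PRC1 i2KO 2 among the PRC1 i2KO libraries. The part of these cells in the values of the 10 genes was not tested.

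Smad9, Id2, Id3 and Id4 stayed negative and Smad1, Smad5 and Id1 stayed positive under each of the 17 alternatives, with none past the threshold. Smad6, Smad7 and Bmpr1a changed sign under at least 1 alternative.

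**Figure D5:**
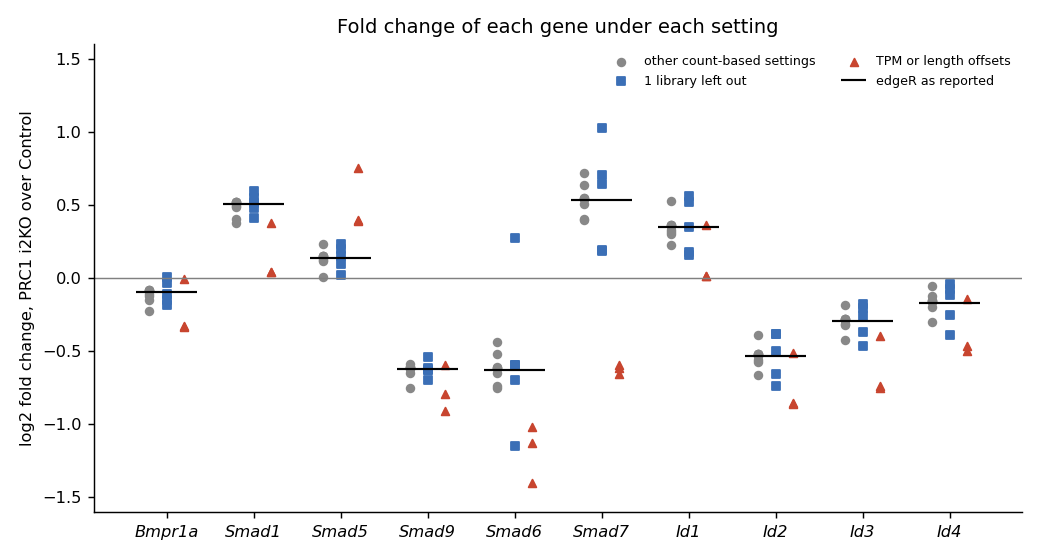
Log2 fold change of PRC1 i2KO over Control for each gene as reported (black line), under other count-based settings (grey), with 1 library left out (blue) and with TPM or length offsets (red). Smad9 stays between -0.91 and -0.54, whereas Smad7 runs from -0.66 to 1.03 and Smad6 from -1.40 to 0.27.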

How the data were processed

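Polyadenylated RNA of 5 libraries was quantified by the authors in 1 table. Per the file headers, the authors deposited an expected count and a TPM value per gene and library. Per the submitters' processing notes the tools were STAR (2.7.9a), RSEM (1.3.3) and DESeq2 (1.38.2) on mm39, with no role given for any. Expected counts, as the authors deposited them, were rounded here to whole numbers. The main test was that of edgeR 4.0.16 under R 4.3.3 (filterByExpr, TMM, quasi-likelihood F test with group as the only term, Benjamini-Hochberg adjustment over 22181 genes, threshold 0.05). The deposited TPM values were used for levels between genes and, as an alternative, in limma 3.58.1 with a pseudocount of 1 or 0.1. DESeq2 1.42.0 and limma-voom were further alternatives. Totals ran from 11626006 to 43307694 counts, and counting error is only part of the spread between libraries.

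The members and gene lists were chosen with earlier results of these data known. All 10 members are named, and of each other list the 3 genes with the smallest p at most, with Smad4, Bmpr2, Acvr1, Bmpr1b and the 3 genes with profiles nearest to that of Id1. Tcf3, Tcf4, Krt15, Dcn, Lum, Cd207 and the markers at 0 in both controls (Col3a1, Cd52 and Tyrp1) were added after their values were seen. No label ties the libraries of a group to different animals, and p-values therefore describe the variation of these libraries, part of which may be technical. GENCODE M21 and RefSeq, both on GRCm38, were used for gene models and promoters and not for coordinates of the counts. No sequence of chromosome 18 is shown.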

Additional observations from a re-analysis of the deposited data

How the results depend on the processing

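Of 170 pairs of a gene and an alternative setting, 165 kept the direction of the reported value without passing and 5 changed sign, and 0 of the 10 genes passed as higher or lower under any of the 17 alternatives (smallest adjusted p 0.0947, DESeq2, Smad9). The sign changes were Bmpr1a without Control 3 (0.0071, against -0.19 without Control 2), Smad6 without Control 2 (0.27, against -1.15 without Control 3), and Smad7 on log2(TPM + 1) (-0.62), on log2(TPM + 0.1) (-0.66) and with gene length offsets (-0.59). The median of the 10 genes was -0.54 on log2(TPM + 1) and -0.58 on log2(TPM + 0.1), where the median of all genes was -0.19 and -0.33. With 1 library left out in turn it ran from -0.21 to 0.0053. The log2 ratio of receptor-regulated to inhibitory SMADs was -0.25 from CPM in place of 1.12 from TPM, and ran from 0.48 to 1.76 with 1 library left out. The difference in Id1 share ran from 8.41 to 13.0 percentage points and that in Id2 share from -8.41 to -4.72 with 1 library left out. The cause of these changes was not tested, except that length offsets alone, on the same counts, turned the sign of Smad7. Upper-quartile factors shifted the median of all genes to -0.12, and Smad5 was then at 0.01.

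With a replicate block by title number, edgeR called 140 genes higher and 25 lower, and by description number 10 and 0, against 28 and 0 without a block. The 10 genes had 0 calls under either, and their median was -0.11 and -0.13. Deviations of same-numbered libraries correlated at 0.0645 and 0.0409 by title, and at -0.0237 and -0.0645 by description, but with 2 controls the deviations of one mirror those of the other, so these are not separate pieces of evidence. No label ties a number to a shared animal, litter or day, and the libraries were not treated as paired. Calls over all genes ran from 2 higher (limma on log2(TPM + 1), with 1 lower) to 754 higher and 166 lower (DESeq2). They were 4 without Control 2, 8 without Control 3, and 8, 39 and 14 without PRC1 i2KO 1, 2 and 3, the 39 beside 4 lower, and 140 higher and 12 lower with no filter.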
